A study of Mus musculus with 6 samples.

Results

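The colony-stimulating factors are secreted proteins that drive the survival, growth and maturation of myeloid cells, and the 6 genes described here encode 3 of these ligands and 3 of their receptor chains. They were taken as the probes whose platform annotation names exactly 1 gene symbol, that symbol being Csf1, Csf2, Csf3, Csf1r, Csf2ra or Csf2rb. This gave 8 probes of 13738 and 6 genes of 10698. The rule uses names only, though the members were proposed with earlier results of these data known. Each gene had 1 probe with a ratio on all 6 arrays, so all 6 members were among the 9607 genes tested, and the second probes of Csf3 and Csf2ra lacked a ratio on 2 arrays and on 1 array.

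RAW 264.7, a mouse macrophage line, was cultured for 16 hours with lipopolysaccharide (LPS, a bacterial cell wall component) at 100 ng/ml plus 100 pM of LPS-binding protein, the serum protein that delivers LPS to its receptor, or was left untreated for the same time. Each of 6 dual-colour arrays carried total RNA from both cultures, 3 with the treated RNA in Cy5 and 3 with it in Cy3, and each orientation has set numbers 1, 2 and 3. The labels do not say that the sets are separate cultures, so p-values reflect only how far these samples differ, which may be technical variation, and the number of arrays limits the precision. Values below are log2 ratios of treated over untreated cells; a gene's value is the mean over the 3 sets, each the mean of its 2 orientations, with the SD over sets (n = 3). The table's direction is unstated and was taken as Cy5 over Cy3, the likely reading, since test RNA is labelled Cy5 and control RNA Cy3 on each array in the labels; with the reverse direction every sign, rank and up or down count given here would turn. A ratio says nothing of the level of a gene in either culture, and in a bulk culture fewer cells of a type and less RNA per cell cannot be told apart.

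Csf1 (M-CSF) is the main growth and survival factor of macrophages and signals through the receptor tyrosine kinase Csf1r. Csf2 (GM-CSF) binds a receptor of a ligand-specific chain, Csf2ra, and a signalling chain, Csf2rb, which the receptors of interleukins 3 and 5 share. Csf3 (G-CSF) drives the output of neutrophils through Csf3r, and LPS-stimulated macrophages are a textbook source of Csf2 and Csf3.

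In treated cells 2 of 3 ligands rose and 1 of 3 receptor chains rose, while 1 receptor chain fell. Csf3 rose 21.2-fold, Csf2 1.94-fold and Csf2ra 1.53-fold. Csf1r was 1.21-fold lower in treated cells. Csf1 and Csf2rb did not pass the test, at log2 -0.11 and 0.14. A gene was called at an adjusted p under 0.05 in limma, over all genes tested. The members' 4 calls of 6 stand beside a background of 31.4% of the 9607 genes, with 3 up beside 16.8% and 1 down beside 14.6%. With 6 genes these shares are a description. Without set 1, 1 ligand and 1 receptor chain rose, without set 2 only the 2 ligands rose, and Csf1r was called in neither case. Over all 9607 genes 1618 rose and 1400 fell with all sets, 1193 and 965 without set 1, and 1319 and 951 without set 2. Without set 3, 1579 genes rose and 1411 fell. The median log2 ratio was 0.95 over the ligands and 0.14 over the receptor chains, against -0.01 over all genes.

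**Figure D1:**
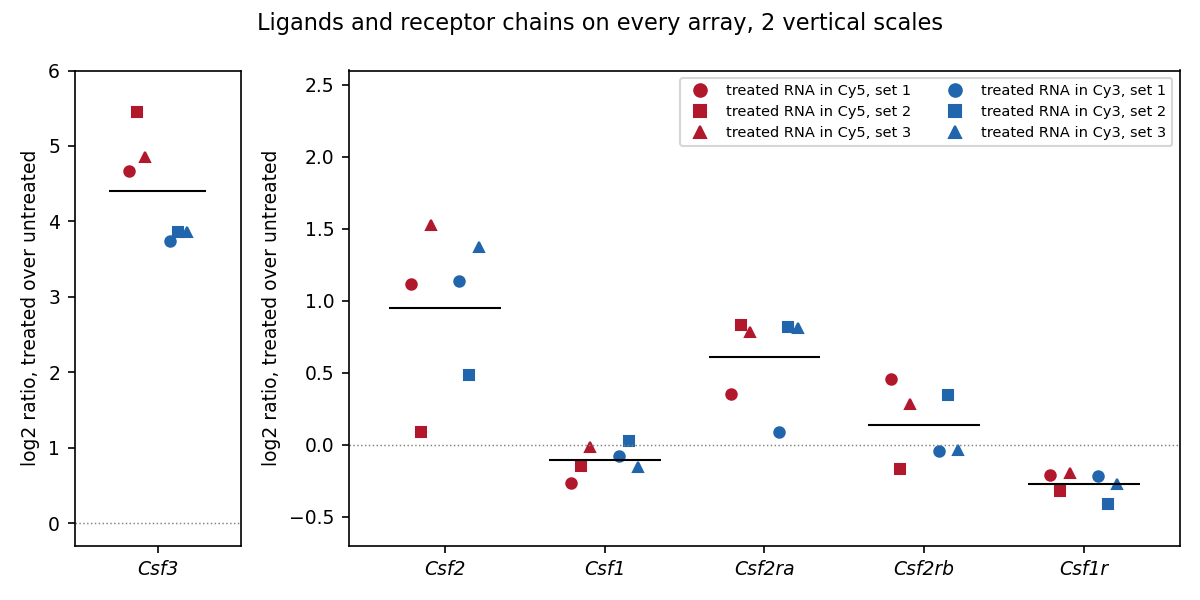
Log2 ratio of treated over untreated cells (vertical axis) for each member on each of the 6 arrays, with colour for the dye of the treated RNA, shape for the set and a horizontal bar for the gene's mean. Csf3 has its own scale at the left, with all 6 arrays between 3.74 and 5.45, while no other member exceeds 1.53.

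Promoter windows of members from the RefSeq table of build GRCm38.p6 are shown for Csf2 and Csf2ra, which rose, and for Csf1, a ligand that was not called. The table held 3 of the 6 members; Csf3, Csf1r and Csf2rb had no entry. Each window is the 250 bases before the annotated start of the gene, 5′ to 3′ on the gene's own strand, and capitals mark matches to the motifs searched.
Csf2, chr11:54249900-54250149, minus strand: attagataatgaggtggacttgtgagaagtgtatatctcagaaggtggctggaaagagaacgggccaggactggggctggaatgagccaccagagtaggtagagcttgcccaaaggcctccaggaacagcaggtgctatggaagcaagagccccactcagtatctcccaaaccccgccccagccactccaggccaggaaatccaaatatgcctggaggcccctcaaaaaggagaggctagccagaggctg
Csf2ra, chr19:61228419-61228668, minus strand: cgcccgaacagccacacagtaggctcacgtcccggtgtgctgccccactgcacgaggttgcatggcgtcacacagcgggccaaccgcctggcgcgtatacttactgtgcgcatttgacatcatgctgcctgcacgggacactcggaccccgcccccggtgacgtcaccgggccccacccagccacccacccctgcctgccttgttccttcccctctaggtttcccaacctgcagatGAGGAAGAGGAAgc
Csf1, chr3:107760470-107760719, minus strand: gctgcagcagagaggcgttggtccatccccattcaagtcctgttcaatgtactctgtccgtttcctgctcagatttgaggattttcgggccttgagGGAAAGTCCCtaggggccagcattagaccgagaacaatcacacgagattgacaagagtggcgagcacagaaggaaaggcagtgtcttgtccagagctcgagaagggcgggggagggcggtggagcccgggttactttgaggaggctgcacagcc

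Both strands were searched for the TATA box TATAAA, the AP-1 site TGANTCA, the CK-1 core AGATTCC, the PU.1 box GAGGAA and the NF-kappaB consensus. The Csf1 window held 1 NF-kappaB match, on the strand opposite to the gene at positions -154 to -145 from the start; 7.01% of 27025 promoter windows hold such a match. The Csf2ra window held 2 adjoining PU.1 boxes at -14 to -9 and -8 to -3, a motif found in 23.1% of windows. In the Csf2 window none of these motifs were found, which says nothing of bases outside the window or of another start. The TATA box, AP-1 and CK-1 motifs occur in 13.0%, 6.87% and 3.09% of windows. A match is a description of letters and not of binding.

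Csf3, the neutrophil growth factor, was the member that differed most between treated and untreated cells. With treated RNA in Cy5 its log2 ratios were 4.67, 5.45 and 4.86 in sets 1, 2 and 3, and with treated RNA in Cy3 they were 3.74, 3.87 and 3.86. Every array was far above 0, and the 3 arrays with treated RNA in Cy5 all lay above the other 3. The mean was 4.41 ± 0.23 (SD, n = 3), with a 95% interval of 4.17 to 4.64 and a limma adjusted p of 1.49e-06. It ranked 8th of 9607 genes. No array reached the 100-fold ceiling of the table.

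The orientations differed for Csf3 by 1.17 (95% interval 0.72 to 1.62), at 4.99 with treated RNA in Cy5 and 3.82 with treated RNA in Cy3. This did not pass adjustment over all genes in limma (adjusted p = 0.0657), where 0.364% of genes passed. It was the 38th largest orientation difference in size of 9607 genes. The other 5 members differed between orientations by at most 0.10 in size, with adjusted p from 0.782 to 0.933.

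Csf3 has a second probe, annotated to the same gene, that gave another picture. Its ratio was -2.11 on the one array with treated RNA in Cy5 that had a value, and 2.32, 1.88 and 1.80 on the 3 arrays with treated RNA in Cy3. Turned back to the dyes and in the direction taken, the Cy3 channel was the brighter one on all 4 arrays. The sign thus followed the dye and not the treatment. Only set 1 had both orientations, and their mean was 0.10. Of 12710 named probes with a ratio on at least 4 arrays and in both orientations, 7.78% had the same dye brighter on every array, and 34 had it at least 2-fold brighter on every array. The rise of Csf3 therefore rests on 1 probe. With exact zeros kept as ratios, the second probe enters the mean and the gene's value becomes 2.53 (adjusted p = 0.0102).

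**Figure D2:**
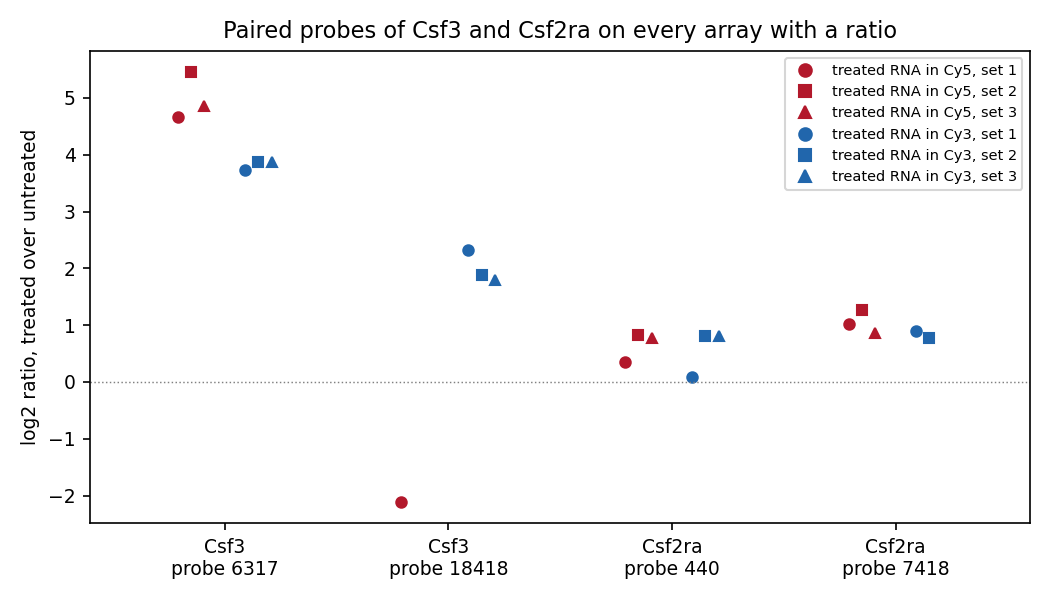
Log2 ratio of treated over untreated cells (vertical axis) for both probes of Csf3 and both of Csf2ra, 1 point per array with a ratio, coloured by the dye of the treated RNA and shaped by set. Probe 18418 of Csf3 lies at -2.11 on the array with treated RNA in Cy5 and at 1.80 to 2.32 on those with treated RNA in Cy3, while both Csf2ra probes stay above 0.

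Csf2, which acts on macrophages, granulocytes and dendritic cells, rose less, and its SD over sets was the largest among the members. Its ratios with treated RNA in Cy5 were 1.11, 0.09 and 1.53 in sets 1, 2 and 3, and with treated RNA in Cy3 they were 1.14, 0.49 and 1.37. All 6 arrays were positive, and set 2 was the lowest in both orientations. By set the values were 1.13, 0.29 and 1.45, a mean of 0.95 ± 0.60 (95% interval 0.48 to 1.43, limma adjusted p = 0.0114, rank 383). The SD of 0.60 compares with a median of 0.12 over all genes. The limma interval draws on the variance of all genes, and the set 2 value of 0.29 lies below it. The call ended without set 1 (0.87, adjusted p = 0.059), under robust variance moderation (adjusted p = 0.0899) and with exact zeros kept (adjusted p = 0.109), and without set 2 the value was 1.29 (adjusted p = 0.000929).

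Csf1, the macrophage growth factor, was not called. Its ratios were -0.27, -0.15 and -0.01 with treated RNA in Cy5 and -0.08, 0.02 and -0.15 with treated RNA in Cy3, so 5 of 6 arrays were slightly below 0. The 95% interval around its mean of -0.11 ± 0.06 ran from -0.27 to 0.06 (limma adjusted p = 0.328). Il34, the other ligand of Csf1r, was at 0.11 ± 0.02 (95% interval -0.05 to 0.27, adjusted p = 0.295), with 3 arrays above 0 and 3 below.

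**Figure D3:**
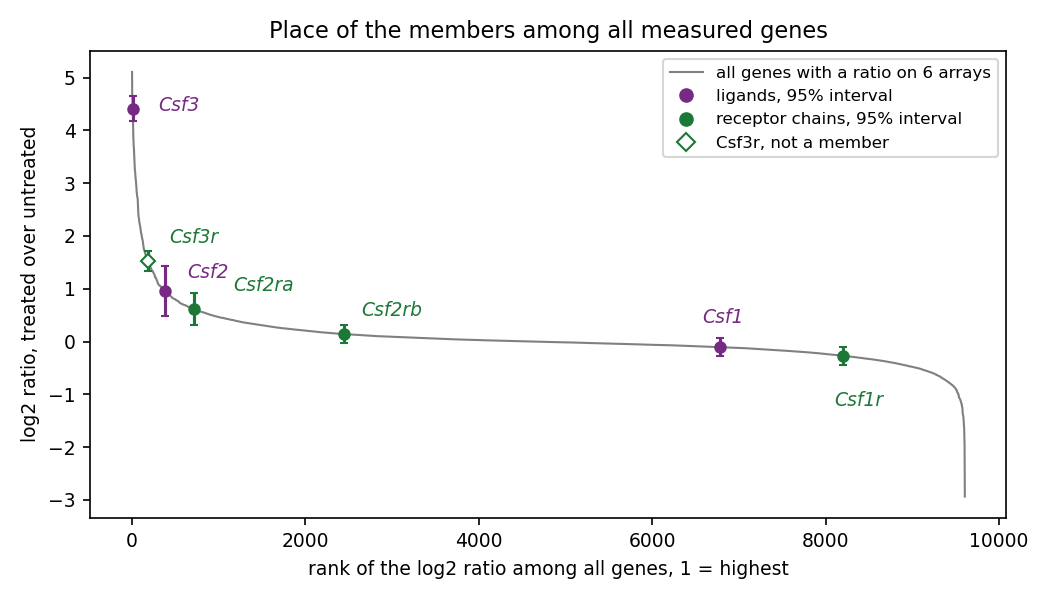
Log2 ratio of treated over untreated cells (vertical axis) of all 9607 genes against their rank (horizontal axis, 1 the highest), with the members and Csf3r drawn with 95% intervals from limma, ligands and receptor chains in different colours. Csf3 lies at rank 8, Csf2 at 383, Csf2ra at 721, Csf2rb at 2450, Csf1 at 6782 and Csf1r at 8205.

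Among the receptor chains, Csf2ra rose. The ratios of its probe on all arrays were 0.35, 0.83 and 0.78 with treated RNA in Cy5 and 0.09, 0.82 and 0.81 with treated RNA in Cy3. Set 1 was the lowest in both orientations and all 6 arrays were positive. The mean was 0.61 ± 0.34 (95% interval 0.31 to 0.91, limma adjusted p = 0.0105). Without set 2 the call ended (0.51, adjusted p = 0.0569).

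The second Csf2ra probe, with no ratio on 1 array of set 3, had 1.02, 1.27 and 0.87 with treated RNA in Cy5 and 0.89 and 0.77 with treated RNA in Cy3. On this probe set 1 was not low, at 0.95 against 1.02 in set 2. Over these 2 sets it was 1.98-fold higher in treated cells (log2 0.99, 95% interval 0.75 to 1.22, adjusted p = 0.000813 in limma over 14541 probes, of which 28.9% were called). Both probes together gave Csf2ra a log2 ratio of 0.77 (95% interval 0.56 to 0.97, adjusted p = 0.00101), with set 3 from the first probe alone.

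Csf2rb, the signalling chain that Csf2ra pairs with, was not called. Its ratios were 0.46, -0.16 and 0.28 with treated RNA in Cy5 and -0.04, 0.35 and -0.03 with treated RNA in Cy3. The 6 arrays lay on both sides of 0 and disagreed in sign within each set, while the set means of 0.21, 0.09 and 0.12 were close together. Their mean was 0.14 ± 0.06 (95% interval -0.03 to 0.31, limma adjusted p = 0.19). Csf2rb2, a mouse paralog that serves the interleukin 3 receptor, was not measured on every array by either of its probes. Its better measured probe was at 0.17 over 2 sets (95% interval -0.09 to 0.43, adjusted p = 0.321). That probe averaged 0.49 with treated RNA in Cy5 and -0.05 with treated RNA in Cy3. The other Csf2rb2 probe was at -0.18 and 0.54 in these orientations, with the Cy3 channel brighter on all 3 of its arrays. Probe sequences were not analysed here, so signal shared between these paralogs is possible.

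Csf1r, the receptor that marks macrophages, fell. Its ratios were -0.21, -0.32 and -0.20 with treated RNA in Cy5 and -0.22, -0.41 and -0.27 with treated RNA in Cy3. All 6 arrays were negative and within a narrow range. The mean of -0.27 ± 0.08 (95% interval -0.44 to -0.10, limma adjusted p = 0.0285) places treated cells at 0.829 of the untreated ones. The call ended without set 1 (-0.30, adjusted p = 0.0837), without set 2 (-0.22, adjusted p = 0.13) and in the Cy5-treated orientation alone (-0.24, adjusted p = 0.127). A probe annotated to the pseudogene Csf1r-ps, looked at after its values were seen, was at 0.57 ± 0.15 (adjusted p = 0.00241), in the opposite direction.

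The sign of Csf2, Csf3, Csf2ra and Csf1r was the same on all 6 arrays, as it was for 35.6% of all genes. Csf1 and Csf2rb changed sign between arrays. In the order of the log2 ratios, Csf3 stood clear of Csf2, the 95% intervals of Csf2 and Csf2ra overlapped, and those of Csf2ra and Csf2rb came close without overlapping (lower bound of Csf2ra 0.3124, upper bound of Csf2rb 0.3084). The intervals of Csf2rb and Csf1, and of Csf1 and Csf1r, also overlapped. Separate intervals of genes on the same arrays are no test of a difference, and Csf2ra minus Csf2rb was not tested.

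Each ligand was set against its receptor by the difference of their log2 ratios in each set. For Csf3 and Csf3r, the G-CSF receptor, which is not among the 6 members, the ligand exceeded the receptor by 2.69, 3.01 and 2.95, a mean of 2.88 ± 0.17. Csf3r itself rose 2.87-fold (log2 1.52 ± 0.12, limma adjusted p = 2.5e-05), so both genes of this pair rose. The difference was at least 2.24 on every array.

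For Csf2 the difference from Csf2rb was 0.92, 0.19 and 1.33 in sets 1, 2 and 3 (mean 0.81 ± 0.57), positive on 6 of 6 arrays. Against Csf2ra it was 0.90, -0.54 and 0.65 (mean 0.34 ± 0.77), so set 2 went the other way and the difference was smaller than its spread. Csf1 exceeded Csf1r by 0.04, 0.30 and 0.15 (mean 0.17 ± 0.13), on 5 of 6 arrays. In an exact sign-flip permutation test over the 3 sets (two-sided), 3 of the 4 pairs gave p = 0.25, the smallest the design allows, and Csf2 minus Csf2ra gave p = 0.5. After Benjamini-Hochberg adjustment over the 4 pairs these were 0.333 and 0.5, so no pair could pass 0.05.

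**Figure D4:**
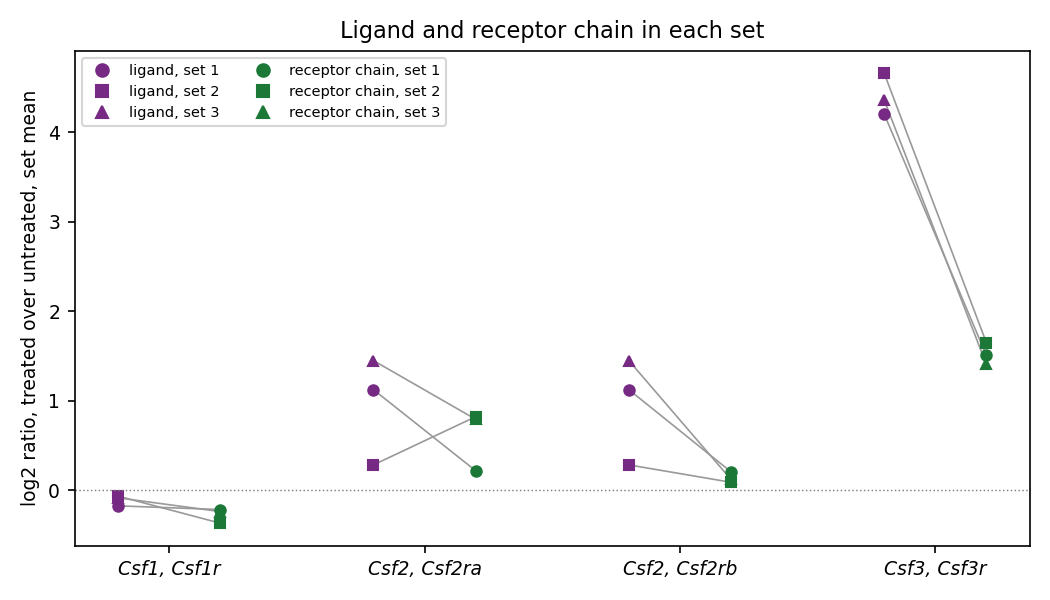
Log2 ratio of treated over untreated cells as set means (vertical axis) of each ligand at the left and its receptor chain at the right, joined within a set, with shapes for sets 1, 2 and 3. The lines slope down for Csf3 and Csf3r in all 3 sets and cross for Csf2 and Csf2ra, where set 2 has 0.29 for the ligand and 0.82 for the receptor chain.

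By the root mean square difference over the 6 arrays, the genes nearest to Csf3 were Il1a (0.15), Gstt4 (0.17) and Rsad2 (0.19). Their orientations differed in the same direction as those of Csf3, by 1.06, 1.20 and 1.46 with treated RNA in Cy5 minus treated RNA in Cy3. Genes chosen for closeness to Csf3 on these same arrays must show such a difference, so it is no separate result. Nearest to Csf2 were Egr1 (0.21), Ids (0.26) and Clec7a (0.26), and to Csf2ra Rnf128 (0.10), Ptpn22 (0.11) and Asb11 (0.12). The genes nearest to Csf1r were Kbtbd4 (0.04), Tbp (0.05) and Tdg-ps2 (0.05). Those nearest to Csf1 were Mpc1 (0.06), Fibin (0.06) and Casp14 (0.06), and those nearest to Csf2rb were Hif3a (0.05), Slc34a1 (0.08) and Syt7 (0.09). These distances over 6 arrays that share their RNA sources are a description.

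Of 14 tested genes for related ligands and receptors, 3 rose and 1 fell, a share of calls near the 31.4% of all genes, with a median log2 ratio of -0.0005 against -0.01 for all genes. Besides Csf3r, the cytokine Lif rose 2.31-fold (log2 1.21 ± 0.15, adjusted p = 9.42e-05). Flt3l, the ligand of the progenitor receptor Flt3, rose 1.59-fold (0.67 ± 0.23, adjusted p = 0.00257). The erythropoietin receptor Epor fell (-0.77 ± 0.40, adjusted p = 0.00695). Il3 (-0.06) and Il5 (-0.01), whose receptors use Csf2rb, were not called, nor were the chains Il3ra (-0.14) and Il5ra (0.11).

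Of 20 tested signal transducers used by these receptors 7 rose and 6 fell, beside 16.8% and 14.6% of all genes, with a median of -0.02. Jak2, the kinase bound to Csf2rb, rose 2.10-fold (log2 1.07 ± 0.26, adjusted p = 0.000468). Its target Stat5a rose 1.56-fold (0.64 ± 0.12, adjusted p = 0.00108), while the related Stat5b was at -0.20 (adjusted p = 0.122). Tyk2 (0.67), Ptpn11 (0.61), Stat3 (0.48), Gab2 (0.47) and Sos1 (0.45) rose. The lipid phosphatase Inpp5d, which restrains signalling from these receptors, fell (-0.69 ± 0.03, adjusted p = 0.000473). Akt1 (-0.43), Shc1 (-0.39), Fes (-0.37), Pik3r1 (-0.31) and Grb2 (-0.27) also fell. Without set 1, 2 or 3, 7 transducers rose each time but 2, 3 and 4 fell. Over all 9607 genes 965, 951 and 1411 fell in these fits, against 1400 with all sets. Fes, Grb2, Shc1 and Pik3r1 lost their calls without set 1 (adjusted p from 0.0526 to 0.121), Fes, Grb2 and Akt1 without set 2 (0.0563 to 0.0851) and Grb2 and Pik3r1 without set 3 (0.0673 and 0.111).

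Among 10 feedback and target genes of cytokine receptors 5 rose, beside 16.8% of all genes, and the others were not called, with a median of 0.24. Pim1, a kinase induced by STAT5, rose 4.60-fold (log2 2.20 ± 0.23, adjusted p = 1.29e-05). The receptor inhibitors Cish (1.21 ± 0.12) and Socs1 (0.95 ± 0.01) rose, as did Socs2 (0.55 ± 0.42) and the survival gene Bcl2l1 (0.40 ± 0.13). Socs3, which restrains signalling from Csf3r, was at 0.08 (adjusted p = 0.589). Without set 3, 1 of the 10 fell, as did 1411 of all 9607 genes. Dusp6 was at -0.54 and -0.29 in sets 1 and 2 but at 0.46 in set 3. Over all sets Dusp6 was not called (-0.13, limma adjusted p = 0.667).

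Myeloid transcription factors rose in 9 of 13 cases and 1 fell, beside 16.8% and 14.6% of all genes, with a median of 0.52. Cebpd rose 3.80-fold (log2 1.93 ± 0.17) and Cebpb 2.02-fold (1.02 ± 0.22). Egr1 (1.06), Egr2 (1.02), Mitf (0.89), Gfi1 (0.81), Irf8 (0.52) and Irf4 (0.28) rose, Irf4 losing its call without set 1 (adjusted p = 0.151) and without set 3 (0.084). Spi1 (PU.1) rose (0.44 ± 0.14, adjusted p = 0.00641) and Runx1 fell (-1.05 ± 0.13, adjusted p = 0.000144), both among the factors that drive Csf1r transcription. Ets2 (0.22, limma adjusted p = 0.0788), Cebpa (0.22, 0.117) and Klf4 (0.08, 0.662) were not called. The part of these factors in the Csf1r value was not tested. The 4 genes that process the ligands or receptors gave 0 calls in limma (1 at an unadjusted p under 0.05) and ranged from -0.10 to 0.20. The one with the highest ratio was Adam17 (0.20, adjusted p = 0.0752), the protease that sheds Csf1r.

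**Figure D5:**
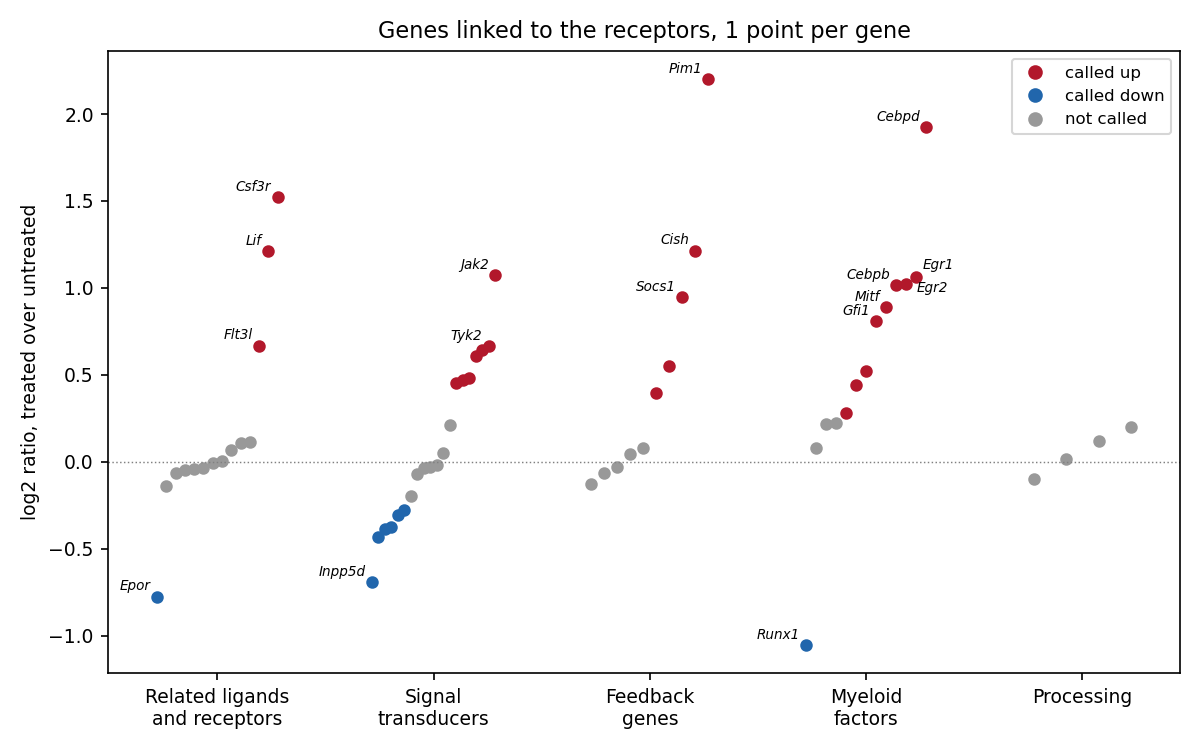
Log2 ratio of treated over untreated cells (vertical axis) for the genes of 5 linked lists, 1 point per gene, coloured by whether limma called it up, down or not at all. Pim1 at 2.20 and Cebpd at 1.93 are the highest points and Runx1 at -1.05 the lowest.

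The ratios cannot check the labelled cell type, since they hold no levels. Of 11 tested macrophage markers, Csf1r included, 9 rose and 1 fell, beside 16.8% and 14.6% of all genes, with a median of 0.44 and a range of -0.27 to 2.13. Without set 1, 2 or 3, 7, 6 and 8 of them rose. Over all 9607 genes 1193, 1319 and 1579 rose in these fits, against 1618 with all sets. Markers of other cells were called up in 1 of 5 T cell genes (Cd4, 0.31), 1 of 4 B cell genes (Cd79a, 0.35), 1 of 5 fibroblast genes (Dcn, 0.54) and 0 of 5 granulocyte genes in limma, where 1, S100a8 at -0.18, had an unadjusted p under 0.05. These few calls are near the 16.8% of all genes that rose. Cd4 lost its call without set 1 (adjusted p = 0.117) and without set 3 (0.0956), and Dcn without set 2 (0.142). The part of these markers in the members' values was not tested.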

How the data were processed

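The deposited table holds log2 ratios of the 2 dye channels for 16281 probes on 6 arrays, as read from the signs and range of the values; no source used here gives the authors' background correction, normalization or scanner. Arrays of opposite orientation correlated at -0.831 to -0.585 as deposited, across probes, which are not independent replicates. Signs were set to treated over untreated by the dye in each title, and exact zeros (9.56% to 12.9% of an array's probes) were taken as missing. Probes with 6 ratios were averaged per gene symbol, the 2 orientations of a set number were averaged, and the 3 set values of 9607 genes entered limma 3.58.1 as a test of a mean of 0 (lmFit with eBayes; two-sided; Benjamini-Hochberg over all genes; 95% intervals) in R 4.3.3. Orientation differences came from a 6-array limma fit with a dye term. The fit was tested on data simulated from its own variance model, with no dye or set effects. That check does not cover how far these arrays depart from the model. Figures used Python 3.11.15 and matplotlib 3.10.9. Gene names come from the platform annotation and promoter windows from RefSeq tables of build GRCm38.p6. The text names all 6 members, genes of fixed lists and the 3 genes nearest to each member over the 6 arrays. Members and lists were chosen with earlier results of these data known. Alternatives covered the set block, single sets and orientations, zeros, missing ratios, normalization, moderation and probe summaries.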

Additional observations from a re-analysis of the deposited data

Results flagged for a closer look

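Csf3 probe 18418 moved in opposite directions in the 2 dye orientations. Its log2 ratio of treated over untreated cells was -2.11 on the 1 array with treated RNA in Cy5 and averaged 2.00 on the 3 arrays with treated RNA in Cy3, a difference of -4.11. The difference was not tested, since 1 orientation had a single value.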

How the results depend on the processing

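Of 14 alternatives, all kept the call of Csf3 and its direction, with values from 2.53 (exact zeros kept as ratios) to 4.99, and all left Csf1 and Csf2rb uncalled. No member changed sign. Csf2 lost its call at an unchanged 0.95 with exact zeros kept and under robust moderation, and leaving out 1 set gave 0.71 to 1.29. Csf1r lost its call with treated RNA in Cy5 alone (-0.24), and leaving out 1 set gave -0.30 to -0.22. Without 1 set Csf2ra ran from 0.51 to 0.81, 2 to 3 members rose and 0 to 1 fell; 0 fell with treated RNA in Cy5 alone. Csf3 minus Csf3r was 3.43 with treated RNA in Cy5 alone and 2.34 with treated RNA in Cy3 alone. The cause of these shifts was not tested. The number of changed genes ran from 2103 of 10698 (exact zeros kept as ratios) to 3381 of 9607, around 3018 of 9607. With the probe as the unit of test, 4129 of 13418 probes changed. With the set number as a replicate block over the 6 arrays, 3378 genes changed, 3 members rose and 1 fell, as in the fit of set means; without a replicate block it was 3381. Same-numbered arrays deviated together at 0.19, 0.05 and 0.54 in sets 1, 2 and 3, against -0.36 to 0.20 between different numbers. Deviations were taken from the mean of each orientation, so these correlations depend on each other. The consensus correlation within sets was 0.003. Whether the set numbers pair the arrays therefore stays unsettled. The table gives no signal over background.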
